A study of Mus musculus with 15 samples.

Results

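DNA methylation and the Polycomb repressive complex PRC2 are the main systems by which mammalian cells mark genes for lasting silence, and the genes described here encode their core enzymes and subunits: Dnmt1, Dnmt3a, Dnmt3b, Tet1, Tet2, Tet3, Ezh1, Ezh2, Eed and Suz12. They were named by symbol. Each was represented by the probe set that carries its symbol alone and, where a gene had several, by the one with the highest mean over all arrays. A probe set was found for 10 of the 10 genes, out of 19938 genes in all. RNA came from cultured mammary epithelial cells of female mice aged 8 weeks, taken while proliferating, and was hybridised to 15 Affymetrix arrays, 3 for each of 5 groups. The groups were p53- Rb- Myc+ (p53 and Rb deleted, MYC overexpressed), p53- Myc+ (p53 deleted, MYC overexpressed), p53- Rb- (both genes deleted), p53- (p53 deleted) and WT. Deletion was by Cre from an adenovirus and overexpression by a retrovirus, and every group other than WT carries the p53 deletion. The labels do not say whether WT cells received a control virus, whether a group was a clone or a pool, or whether its 3 samples came from separate animals or cultures. The p-values therefore measure the spread between these samples, which may be technical.

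Dnmt1 copies methylation of CG pairs onto the new strand after DNA replication, while Dnmt3a and Dnmt3b place it on unmethylated DNA. Tet1, Tet2 and Tet3 oxidise methylcytosine, the first step of its removal. PRC2 methylates a lysine of histone H3 through Ezh2 or its relative Ezh1, and both need Eed, which binds the finished mark, and Suz12, which holds the complex together. Ezh2 is typically abundant in dividing cells and Ezh1 in resting ones. In mice, Ezh2 and Dnmt1 are known for roles in mammary progenitor cells. EZH2 and EED are known in human and mouse cells as targets of the E2F factors that Rb restrains.

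The promoters of 4 of the 5 genes that rose in p53- against WT arrays, as described further on, are shown because they hold a word of those searched, while the window of Tet2, the fifth, holds none. Each is a RefSeq window of GRCm38.p6, from 250 bases before to 50 bases after an annotated start, read 5′ to 3′ on the gene's strand. The windows are chr6:47594981-47595280 (minus strand) for Ezh2, chr11:79992856-79993155 (plus) for Suz12, chr7:89980927-89981226 (minus) for Eed and chr9:20952574-20952873 (minus) for Dnmt1, for which 3 windows are annotated. Capitals mark the E2F-type words TTTCCCGC, TTTCGCGC, TTTGCCGC and TTTGGCGC and the word TTTGAA, known as the CHR element of cell cycle promoters, on either strand.
Ezh2: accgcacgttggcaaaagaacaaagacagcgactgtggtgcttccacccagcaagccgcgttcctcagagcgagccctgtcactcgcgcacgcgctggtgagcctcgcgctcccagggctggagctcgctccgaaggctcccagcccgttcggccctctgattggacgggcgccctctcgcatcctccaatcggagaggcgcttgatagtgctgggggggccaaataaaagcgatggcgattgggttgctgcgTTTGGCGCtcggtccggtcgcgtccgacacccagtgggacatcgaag
Suz12: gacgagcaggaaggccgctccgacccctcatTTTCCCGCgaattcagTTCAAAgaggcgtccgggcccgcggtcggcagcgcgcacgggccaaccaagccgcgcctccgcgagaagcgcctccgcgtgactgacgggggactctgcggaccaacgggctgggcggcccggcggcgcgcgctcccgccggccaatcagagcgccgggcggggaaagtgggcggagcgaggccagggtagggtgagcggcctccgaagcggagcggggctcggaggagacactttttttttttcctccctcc
Eed: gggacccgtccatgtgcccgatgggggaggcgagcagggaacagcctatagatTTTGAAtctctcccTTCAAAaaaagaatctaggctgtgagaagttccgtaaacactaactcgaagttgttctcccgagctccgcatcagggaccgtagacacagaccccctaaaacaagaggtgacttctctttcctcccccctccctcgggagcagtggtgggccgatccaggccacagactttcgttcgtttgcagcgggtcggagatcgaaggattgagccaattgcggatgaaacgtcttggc
Dnmt1: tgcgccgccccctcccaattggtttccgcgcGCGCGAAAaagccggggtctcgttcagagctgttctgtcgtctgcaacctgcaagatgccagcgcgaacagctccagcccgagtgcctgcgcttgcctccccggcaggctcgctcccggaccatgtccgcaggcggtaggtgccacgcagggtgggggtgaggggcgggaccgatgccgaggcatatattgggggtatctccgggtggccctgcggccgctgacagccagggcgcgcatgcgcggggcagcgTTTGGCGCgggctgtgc
The Ezh2 window holds 1 E2F-type word, the Suz12 window holds 1 E2F-type word and 1 TTTGAA, the Eed window holds 2 TTTGAA, and the Dnmt1 window holds 2 E2F-type words. In all, 14 windows matched the 10 genes, and E2F-type words stood in 3 of them, those printed for Dnmt1, Ezh2 and Suz12. Among 32851 promoter windows of all genes, 2.26% held such a word. TTTGAA stood in 4 of the 14 windows (1 each for Dnmt1, Dnmt3b, Eed and Suz12), against 17.9% of all windows. The E-box CACGTG, a word bound by MYC, stood in 1 of the 14 windows, for Dnmt3a, against 7.15% of all windows. No printed match overlaps another, and a match describes the sequence only.

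Median intensity lay between 41.28 and 54.9 on the 15 arrays, no 2 arrays were identical, and within a group Pearson's r between arrays over all genes was 0.963 to 0.989, against 0.775 to 0.865 between arrays of different Myc labels. Rb1, which encodes Rb, averaged 18.7 ± 1.09 in p53- Rb- Myc+ and 36.4 ± 10.8 in p53- Myc+ arrays (SD, n = 3 each), and 57.4 ± 6.07 in p53- Rb- against 161 ± 17.3 in p53- arrays. Arrays labelled Rb- were thus lower in Rb1 than those without that label at the same Myc label. Rb1 was also lower in Myc+ arrays, and every p53- Myc+ array lay below every p53- Rb- array (26.8 to 48.0 against 52.7 to 64.2). WT arrays had 86.5, 88.1 and 103.8. In p53- against WT arrays Rb1 rose by 0.71 ± 0.16 (log2 fold change ± SE, adjusted p = 0.00286, limma). The mouse Myc probe set averaged 96.3 ± 10.8 in p53- Rb- Myc+ and 128 ± 29.5 in p53- Myc+ arrays, against 856 ± 107 in p53- Rb-, 929.8 ± 105 in p53- and 888 ± 47.9 in WT arrays, so it went against the Myc+ label. Whether it detects the retroviral MYC is not stated in the sources used here. The 6 arrays labelled Myc+ also lacked most of the epithelial signal. The summed intensity of 9 luminal markers was 614.2 to 680.6 in p53- Rb- Myc+ and 168.3 to 232.04 in p53- Myc+ arrays, against 13532 to 15230 in the 9 other arrays, and the defining keratins Krt18 and Krt5 averaged 4.78 and 5.51 in p53- Myc+ arrays. The 7 basal markers summed to 1734 to 2541 in both Myc+ groups and 6056 to 9917 in the other arrays. Acta2, a smooth muscle actin gene, made up nearly all of that sum in Myc+ arrays, at 1668 to 2477 against 1296 to 3656 elsewhere, and each of the other 6 basal markers was at 29.7 or less there. Summed endothelial and adipocyte markers were lower in Myc+ arrays too, at 99.6 to 172.5 and 144.5 to 198.5 against 334.6 to 659 and 232.8 to 536.8, as were summed leukocyte markers, at 234.2 to 317.6 against 557.1 to 2424. Of the adipocyte markers only Fabp4 was lower on every Myc+ array (26.6 to 49.8 against 96.3 to 388.6), and Adipoq, Plin1 and Cidec overlapped. Among endothelial markers Pecam1, Cdh5 and Emcn were lower on every Myc+ array, while Kdr, Tek and Vwf overlapped. The leukocyte markers Cd14, Lyz2 and Cd68 were lower on every Myc+ array, and Ptprc, Csf1r, Itgam and Cd3e overlapped. Summed fibroblast markers overlapped, at 3119 to 5222 against 3209.6 to 7338, but single ones did not all do so. Thy1 (5.74 to 26.6 against 109 to 438), Lum (8.96 to 25.7 against 103 to 156) and Dcn (461 to 955 against 1117 to 1795) were lower on every Myc+ array. Pdgfra was higher in p53- Myc+ arrays, at 510 to 705 against 79.5 to 215 in the arrays without the Myc+ label. Comparisons across the Myc labels are given below with that limit, and its part in them was not tested. Trp53 has no probe set named for it alone and was not analysed here.

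Of the DNA methyltransferases, Dnmt1 and Dnmt3b took the same order over the groups and Dnmt3a another. Dnmt1 had intensities of 1139, 1101 and 1004 in p53- Rb- Myc+ arrays, 1039.8, 1081 and 1139.9 in p53- Myc+ arrays, 801, 719 and 739.7 in p53- Rb- arrays, 581, 689.7 and 619 in p53- arrays and 405, 388 and 548 in WT arrays. Both Myc+ groups thus lay above the other groups, every p53- Rb- array lay above every p53- array, and every p53- array lay above every WT array. Dnmt3a had 89.9, 108 and 69.6 in p53- Rb- Myc+ arrays, 50.8, 44.0 and 47.2 in p53- Myc+ arrays, 152, 221 and 138 in p53- Rb- arrays, 137, 140.0 and 161 in p53- arrays and 96.1, 90.3 and 149.8 in WT arrays. All p53- Myc+ arrays were lower than every other array, while the p53- Rb-, p53- and WT arrays overlapped. Dnmt3b was dim, with 45.8, 42.1 and 38.5 in p53- Rb- Myc+ arrays, 57.4, 48.4 and 47.2 in p53- Myc+ arrays, 34.9, 35.1 and 34.7 in p53- Rb- arrays, 30.3, 25.6 and 31.2 in p53- arrays and 24.7, 15.3 and 16 in WT arrays. Its groups took the same order as those of Dnmt1 without overlapping, though no neighbouring pair of groups passed the test.

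The Tet dioxygenases were mostly dim and each took its own course. Tet2 had 77.0, 88.3 and 50.3 in p53- Rb- Myc+ arrays, 34.5, 61.4 and 28.7 in p53- Myc+ arrays, 33.5, 39.9 and 29.4 in p53- Rb- arrays, 41.9, 50.4 and 56.4 in p53- arrays and 14.4, 20.7 and 25.1 in WT arrays. The WT arrays were the lowest of all 15, and the other groups overlapped in part. Tet3 had 155, 182 and 197 in p53- Rb- Myc+ arrays, 103, 139 and 119.9 in p53- Myc+ arrays, 77.8, 85.2 and 79.5 in p53- Rb- arrays, 79.6, 104 and 88.0 in p53- arrays and 70.4, 80.1 and 126 in WT arrays. Its 3 p53- Rb- Myc+ arrays were above all others. Tet1 averaged 39 ± 18.4 in p53- Rb- Myc+, 59.5 ± 23.8 in p53- Myc+, 40.4 ± 7.76 in p53- Rb-, 38.9 ± 1.58 in p53- and 52.5 ± 4.51 in WT arrays (SD, n = 3 each). By this probe set, its brightest, it passed in none of the 10 possible pairs of groups, with an unadjusted p under 0.05 between p53- Rb- Myc+ and p53- Myc+ arrays alone. Both of its dimmer probe sets passed as higher in p53- Rb- Myc+ against WT arrays (log2 fold change 0.78, adjusted p = 0.00125, and 0.65, 0.00469, limma). The brightest differed there by -0.37 (0.175). The dimmer 2 also passed as higher in p53- Myc+ against p53- Rb- arrays (0.00265 and 0.00115).

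Ezh2 had its highest group mean in p53- arrays. Its intensities were 343, 294 and 234 in p53- Rb- Myc+ arrays, 366, 358 and 310.3 in p53- Myc+ arrays, 362, 416 and 220.2 in p53- Rb- arrays, 519, 376 and 638 in p53- arrays and 169.9, 149 and 208 in WT arrays. All WT arrays lay below all others, and the 3 groups between p53- and WT were not separated from each other. Suz12 had 353, 367 and 268 in p53- Rb- Myc+ arrays, 365, 287 and 284 in p53- Myc+ arrays, 159, 242 and 115 in p53- Rb- arrays, 453, 390.1 and 456 in p53- arrays and 145, 139 and 137 in WT arrays. The p53- Rb- arrays thus overlapped WT for Suz12, and the p53- arrays were the highest. Eed had 324, 365 and 342 in p53- Rb- Myc+ arrays, 389, 281 and 334 in p53- Myc+ arrays, 214, 219 and 149 in p53- Rb- arrays, 266, 193 and 294 in p53- arrays and 164, 123 and 169 in WT arrays. Both Myc+ groups overlapped each other at the top, and no pair of neighbours in the order passed for Eed. Ezh1 had 32.5, 28.3 and 23.4 in p53- Rb- Myc+ arrays, 47.5, 45.0 and 59.8 in p53- Myc+ arrays, 94.9, 95.3 and 62.2 in p53- Rb- arrays, 53.5, 71.8 and 60.8 in p53- arrays and 56.7, 61 and 51.7 in WT arrays. All 3 p53- Rb- Myc+ arrays were the lowest for Ezh1 and the p53- Rb- arrays the highest group.

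**Figure D1:**
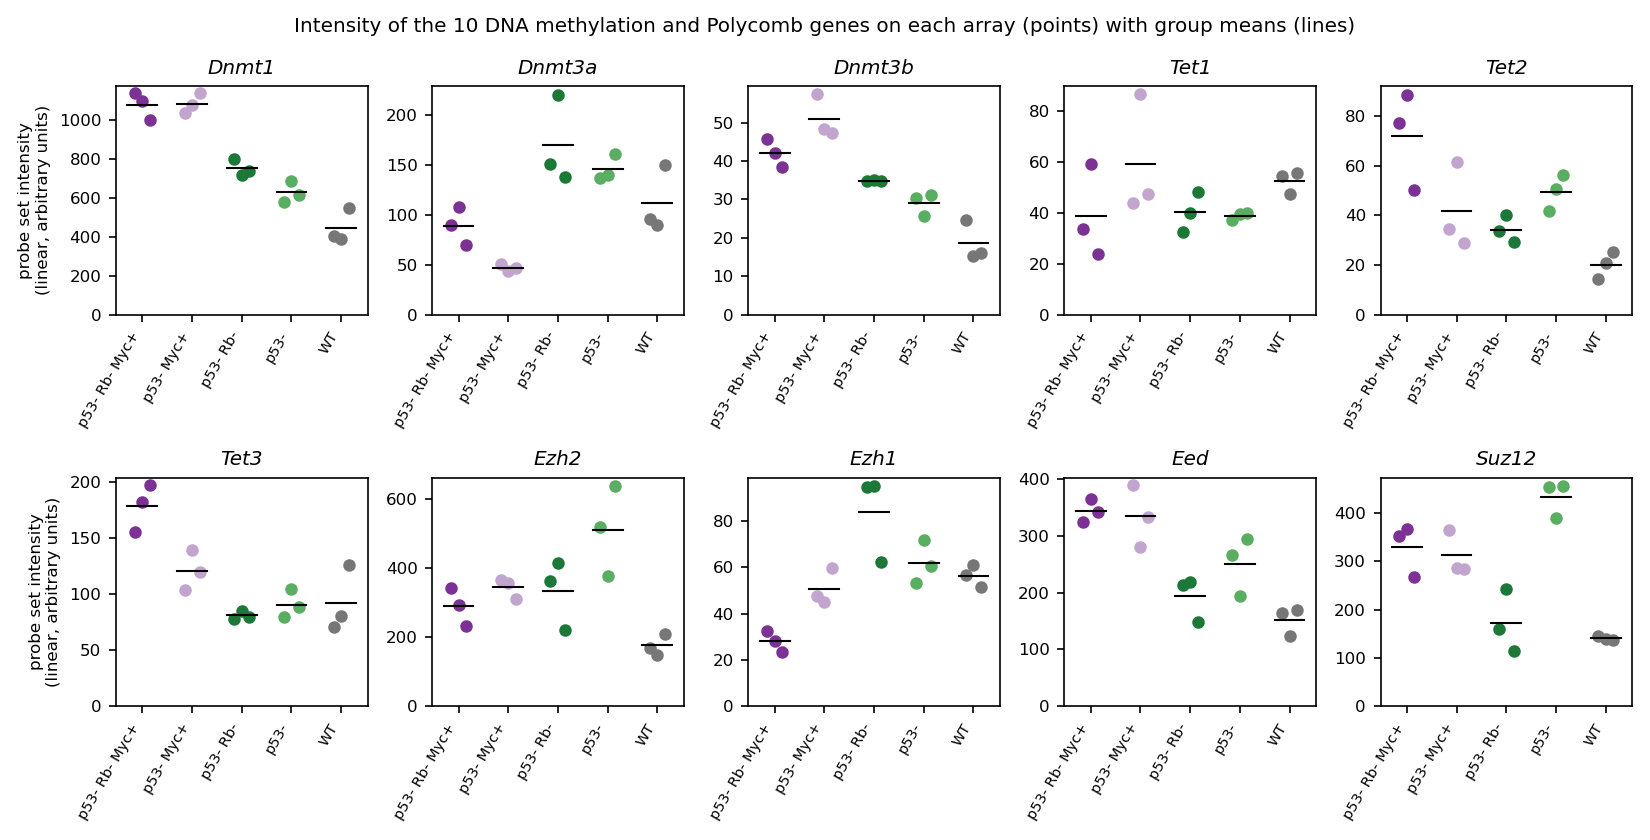
Intensity (vertical axis, arbitrary units as deposited, linear from 0) of each of the 10 genes; points are arrays, horizontal lines are group means, and groups run from p53- Rb- Myc+ to WT. Suz12 shows p53- arrays at 390.1 to 456 and WT arrays at 137 to 145. Tet1, with 23.8 to 86.8 over the 15 arrays, has no pair of groups that passed by the probe set shown.

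Neighbouring groups in each gene's order of means were set side by side with the limma fit described in the processing notes, on the log2 of intensity plus 16, Benjamini-Hochberg adjusted over all 19938 genes of a pair of groups. Of 40 neighbouring pairs, 6 passed at an adjusted p under 0.05. Neighbours were not counted over all genes, so this number has no share to be set against. For Dnmt1 they were p53- Rb- Myc+ above p53- Rb- (adjusted p = 0.0137) and p53- above WT (0.0223). The others were p53- Rb- Myc+ above p53- Myc+ for Dnmt3a (0.0337), p53- Myc+ above p53- Rb- Myc+ for Ezh1 (0.0456), p53- Rb- Myc+ above WT for Ezh2 (0.0157) and p53- Myc+ above p53- Rb- for Suz12 (0.00168). Over all pairs of groups, 48 of 100 tests passed, where the share of all genes that passed ran from 4.69% to 45.4% by pair. By gene the count ran from 8 of 10 for Dnmt1 to 0 of 10 for Tet1.

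The order of the levels also rests on 4 pairs of groups outside the 6 main comparisons, each differing in more than 1 label. Of the 10 genes, 7 rose in p53- Rb- Myc+ against WT arrays and 1 (Ezh1, -0.72) fell, where 45.4% of all genes passed, 26.3% higher and 19.1% lower. Arrays of these groups did not overlap for 8 of the 10, as for 51.8% of all genes. Dnmt1 rose by 1.26 ± 0.16 (log2 fold change ± SE, adjusted p = 7.89e-07) and Tet2 by 1.27 ± 0.21 (2.46e-05). In p53- Myc+ against WT arrays 6 rose and 1 fell, where 44.2% of all genes passed, 23.4% higher and 20.9% lower, and arrays did not overlap for 7 of the 10, as for 47.6%. Dnmt3a fell there by 0.99 ± 0.20 (0.000225), and Dnmt1 rose by 1.27 ± 0.16 (6.42e-07). Against p53- arrays, p53- Rb- Myc+ arrays had 2 genes that rose (Dnmt1 and Tet3) and 3 that fell (Dnmt3a, Ezh1 and Ezh2), where 29.9% of all genes passed, 13.3% higher and 16.5% lower, and 8 of the 10 did not overlap, as for 41.9%. The other probe set of Tet3 did not pass there (0.45, adjusted p = 0.0873, limma). In p53- Myc+ against p53- Rb- arrays 5 rose and 2 fell, where 36.6% of all genes passed, 15.9% higher and 20.7% lower, and 7 of the 10 did not overlap, as for 47.1%.

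The p53- label went with higher levels of 3 of the 4 PRC2 genes, Suz12, Ezh2 and Eed. In p53- against WT arrays, Suz12 rose by 1.52 ± 0.20 (log2 fold change ± SE, here and below; 2.87-fold, adjusted p = 1.34e-05), Ezh2 by 1.44 ± 0.22 (2.71-fold, 6.35e-05) and Eed by 0.66 ± 0.19 (1.58-fold, 0.0113). Tet2 rose by 0.87 ± 0.21 (0.00333) and the maintenance enzyme Dnmt1 by 0.49 ± 0.16 (0.0223). The other PRC2 catalytic gene, Ezh1, differed by 0.10 with a 95% interval of -0.25 to 0.46. In all, 5 of the 10 genes rose and 0 fell, where 29.0% of all genes passed, 19.3% higher and 9.72% lower. The median change of the 10 genes was 0.44, against 0.12 over all genes. Arrays of both groups did not overlap for 7 of the 10 genes, as for 40.3% of all genes. Dnmt3b (0.39, adjusted p = 0.0615), Dnmt3a (0.37, 0.165), Tet1 (-0.32, 0.28) and Tet3 (0.01, 0.982) did not pass. The count was 3 without WT replicate 2 and 3 without p53- replicate 3, and the calls of Dnmt1 and Eed ended in 6 and 3 of 16 alternatives. The change of the dim Tet2 was 1.29 with 1 added before the logarithm and 0.43 with 64 added, past the threshold in both.

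Genes that work with these enzymes were counted by list in p53- against WT arrays, where 29.0% of all genes passed. Of the lists, PRC2 accessory genes were near that share at 30.0% and PRC1 genes below it at 15.8%, while 46.2% of DNA methylation readers and cofactors, 8 of 16 demethylation genes and 68.4% of proliferation genes passed. Of 10 PRC2 accessory genes, 3 rose and 0 fell: Lcor, whose transcripts include a PRC2 partner (1.31 ± 0.29, adjusted p = 0.00186), the histone-binding Rbbp7 (0.65) and Mtf2 (0.64), which brings PRC2 to CG-rich DNA. Of 19 measured genes of the sister complex PRC1, 3 rose and 0 fell, namely Rnf2, its ubiquitin ligase (1.26 ± 0.21, 0.000134), Pcgf6 (0.95) and Bmi1 (0.73). Among 13 DNA methylation readers and cofactors, 4 rose and 2 fell. Hells, a chromatin remodeller required for normal DNA methylation in mice, averaged 384 ± 52.6 in p53- and 82.5 ± 18.9 in WT arrays (SD, n = 3 each), a rise of 2.03 ± 0.21 (7.15e-07). Usp7 (0.80) and Uhrf2 (0.64) also rose and the methyl-CG binding Zbtb4 fell (-0.87). The demethylation list holds genes of active DNA demethylation, demethylases of the PRC2 mark and other genes. Of its 16 measured genes, 6 rose and 2 fell. Kdm6a, a demethylase of the PRC2 mark (0.77), and Asxl2 (0.98), which is not one, were among those that rose. That count of 8 was 3 without p53- replicate 3. In the same arrays 13 of 19 proliferation genes rose and 0 fell, with Mki67 at 1.93 ± 0.23 (4.83e-06). Summed proliferation intensity was 9257 to 10073 in p53- and 6594 to 6704 in WT arrays, and summed leukocyte markers were 557.1 to 695 in p53- and 2041 to 2424 in WT arrays. Cd14 made up most of that leukocyte sum in WT arrays, at 1366 to 1751, against 255 to 373 in p53- arrays. Of the leukocyte markers, Cd14, Lyz2, Itgam and Cd68 fell, Ptprc rose (0.69, adjusted p = 0.0283, limma) and Csf1r and Cd3e did not pass. Basal markers summed to 6056 to 7516 in p53- and 8656 to 9048 in WT arrays, and fibroblast markers to 3209.6 to 3461 in p53- and 3569.8 to 4060.2 in WT arrays. Their part in the changes of the 10 genes was not tested, and fewer cells of a type cannot be told apart from less RNA per cell in these bulk samples.

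**Figure D2:**
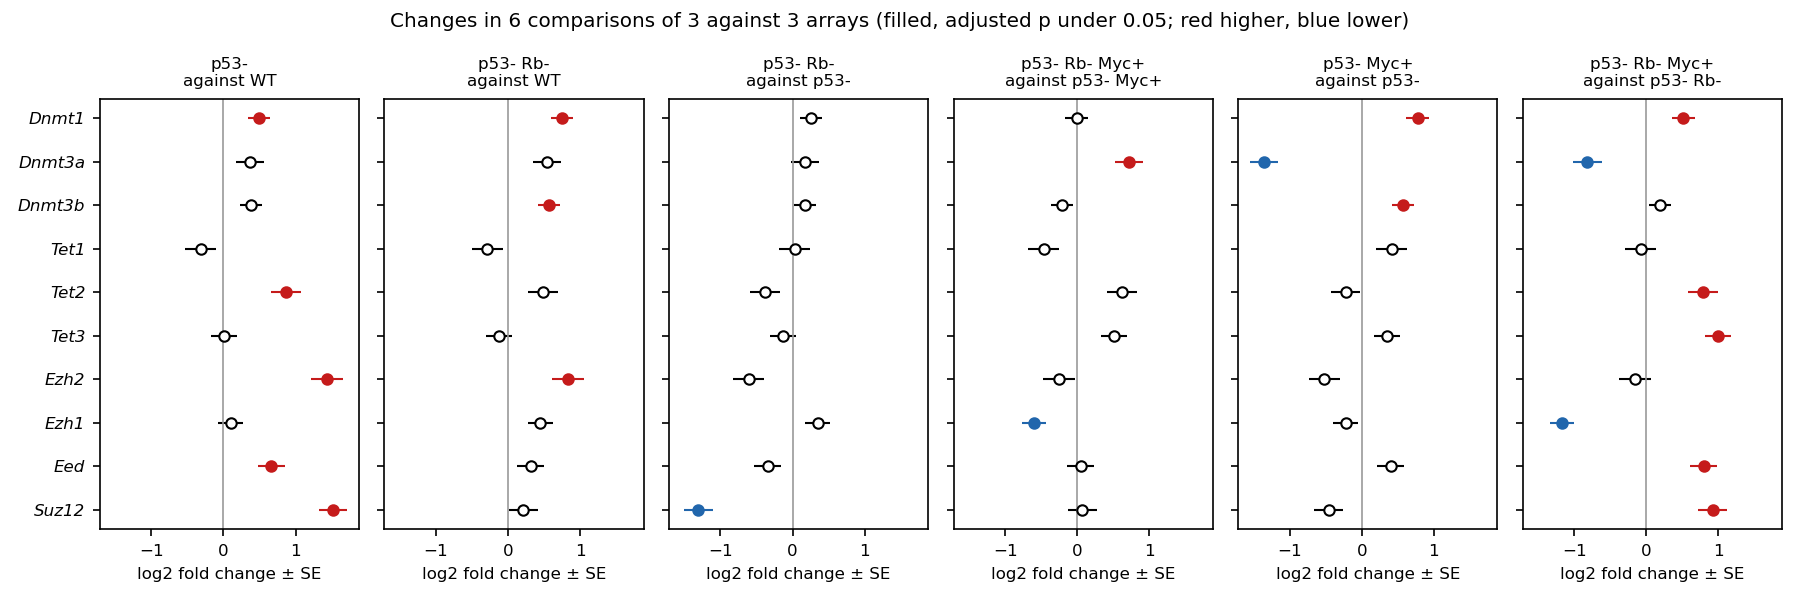
Log2 fold change (horizontal axis, intensity plus 16) of each of the 10 genes in the 6 comparisons of 3 against 3 arrays, with bars for the SE of the fit; filled points passed at an adjusted p under 0.05, red higher and blue lower. In p53- against WT arrays Suz12 (1.52) and Ezh2 (1.44) lie farthest to the right, and in p53- Myc+ against p53- arrays Dnmt3a lies farthest to the left (-1.35).

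Among p53-deleted cells, the Rb- label went with a lower level of Suz12. In p53- Rb- against p53- arrays it fell by 1.31 ± 0.20 (adjusted p = 9.83e-05; 2.48-fold lower). It was the only one of the 10 genes to pass, so that 0 rose and 1 fell, where 19.8% of all genes passed, 9.36% higher and 10.4% lower. Ezh2 differed by -0.61 with an interval of -1.07 to -0.15 (adjusted p = 0.0534), Tet2 by -0.38 (0.2), Eed by -0.35 (0.206), Ezh1 by 0.35 (0.159) and Dnmt1 by 0.25 (0.27). The other 4 genes differed by 0.18 or less in size. Arrays did not overlap for 4 of the 10 genes (Dnmt1, Dnmt3b, Tet2 and Suz12), as for 40.0% of all genes, and the median of the 10 genes was -0.05 against -0.08 over all genes. The count was 2 without p53- replicate 2 and 2 without p53- Rb- replicate 2, and 6 with arrays weighted by their quality. The fall of Suz12 passed in each of 16 alternatives. Ezh2 passed as lower in 6 of 16, its adjusted p running from 0.00367 with array weights to 0.331 without p53- Rb- replicate 3, and so its call turns with the setting.

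In the lists, where 19.8% of all genes passed in p53- Rb- against p53- arrays, the shares were 30.0% of PRC2 accessory, 31.6% of PRC1, 23.1% of reader and cofactor, 25.0% of demethylation and 42.1% of proliferation genes. Of 10 PRC2 accessory genes 3 fell and 0 rose: Lcor (-1.50 ± 0.29, adjusted p = 0.000885), Mtf2 (-0.87) and Aebp2 (-0.55), a DNA-binding subunit. PRC1 split, with 4 of 19 higher, among them Ring1 (0.80) and Scmh1 (0.65), and 2 lower, among them Bmi1 (-0.85). Hells averaged 94.2 ± 33.5 in p53- Rb- arrays, against 384 ± 52.6 in p53- arrays, and fell by 1.9 ± 0.21 (2.98e-06). It was 1 of 3 of the 13 DNA methylation readers and cofactors to fall, and 0 rose. Of the demethylation list, Ogt (-0.91) and Kdm6a (-0.67) fell and Idh2 (0.63) and Cxxc5 (0.55) rose. In the proliferation list 4 of 19 rose, such as Mcm5 (0.59), and 4 fell, such as Mki67 (-1.34) and Bub1 (-1.16), while summed proliferation intensity overlapped at 9035 to 9932 in p53- Rb- and 9257 to 10073 in p53- arrays. With 1 array left out, the passing counts ran from 1 to 3 for PRC2 accessory genes (1 without p53- Rb- replicate 3), 3 to 7 for PRC1 (3 without p53- Rb- replicate 3, without p53- replicate 1 and without p53- replicate 3), 2 to 5 for readers and cofactors (5 without p53- replicate 2), and 2 to 5 for the demethylation list (2 without p53- replicate 3 or p53- Rb- replicate 3). The proliferation count ran from 3 to 8, with 3 without p53- replicate 1 or p53- Rb- replicate 1 and 5 without p53- replicate 3, p53- Rb- replicate 2 or p53- Rb- replicate 3. Fibroblast markers summed to 5794 to 7338 in p53- Rb- and 3209.6 to 3461 in p53- arrays, basal markers to 9652 to 9917 in p53- Rb- and 6056 to 7516 in p53- arrays, leukocyte markers to 724.2 to 819.3 in p53- Rb- and 557.1 to 695 in p53- arrays, and endothelial markers to 514.3 to 572.7 in p53- Rb- and 334.6 to 458.7 in p53- arrays. Their part in these changes was not tested.

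Set against WT, the p53- Rb- arrays showed higher Dnmt1, Dnmt3b and Ezh2 and no call for Dnmt3a, Suz12 or Eed. Dnmt1 rose by 0.75 ± 0.16 (adjusted p = 0.0029), Dnmt3b by 0.57 ± 0.15 (0.0152) and Ezh2 by 0.83 ± 0.22 (0.0137). Thus 3 of the 10 genes rose and 0 fell, where 14.6% of all genes passed, 10.8% higher and 3.75% lower. Suz12 differed by 0.21 with an interval of -0.21 to 0.62 (0.544) and Eed by 0.32 (0.293). Dnmt3a (0.54, 0.0653), Tet2 (0.48, 0.122) and Ezh1 (0.45, 0.0819) did not pass, and Tet1 and Tet3 differed by -0.29 and -0.13. The count of 3 was 1 without WT replicate 2, 1 without p53- Rb- replicate 1, 1 without p53- Rb- replicate 2 and 5 without p53- Rb- replicate 3, and 7 where arrays were weighted. Arrays did not overlap for 5 of the 10 genes, as for 31.3% of all genes. Of the lists, 1 of 10 PRC2 accessory genes (Rbbp7, 0.57), 5 of 19 PRC1 genes, 3 of 13 DNA methylation readers and cofactors, 3 of 16 demethylation genes and 12 of 19 proliferation genes rose, and 1 gene of these lists, the reader gene Zbtb33 (-0.74), fell. With 1 array left out, the passing counts of the lists went from 1 to 0 for PRC2 accessory genes (without WT replicate 2, p53- Rb- replicate 1 or p53- Rb- replicate 2) and from 5 to between 1 and 4 for PRC1 (3 without WT replicate 2 or p53- Rb- replicate 1, 2 without p53- Rb- replicate 2 and 1 without p53- Rb- replicate 3). They went from 4 to between 0 and 3 for readers and cofactors (2 without WT replicate 2 or p53- Rb- replicate 3 and 0 without p53- Rb- replicate 1) and from 3 to between 0 and 5 for demethylation genes (0 without WT replicate 2, 1 without p53- Rb- replicate 2 and 5 without WT replicate 3). Summed markers did not overlap for leukocytes (724.2 to 819.3 in p53- Rb- and 2041 to 2424 in WT arrays), fibroblasts (5794 to 7338 in p53- Rb- and 3569.8 to 4060.2 in WT), basal cells (9652 to 9917 in p53- Rb- and 8656 to 9048 in WT), luminal cells (13532 to 14619 in p53- Rb- and 14705 to 14986 in WT) and proliferation (9035 to 9932 in p53- Rb- and 6594 to 6704 in WT), and their part in these changes was not tested. This comparison and both preceding ones share arrays, so their values are not independent. With the 6 arrays labelled Myc+ left out of the fit, an alternative added after the data were seen, the counts were again 5, 1 and 3 in these comparisons, while that of proliferation genes in p53- Rb- against p53- arrays was 4 in place of 8.

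Among arrays labelled p53- without the Rb- label, the Myc+ label went with higher Dnmt1 and Dnmt3b and lower Dnmt3a. In p53- Myc+ against p53- arrays, Dnmt3a fell by 1.35 ± 0.20 (2.56-fold lower, adjusted p = 7.24e-06), while Dnmt1 rose by 0.77 ± 0.16 (1.71-fold, 0.000452) and Dnmt3b by 0.57 ± 0.15 (0.00504). Of the 10 genes, 2 rose and 1 fell, where 33.3% of all genes passed, 13.1% higher and 20.2% lower. No PRC2 gene passed: Ezh2 differed by -0.52 (0.0757), Suz12 by -0.46 (0.0846), Eed by 0.40 (0.114) and Ezh1 by -0.22 (0.352). Of 15 alternatives, Ezh2 passed in 2 (lowest adjusted p = 0.012, array weights), Suz12 in 1 (0.0498, constant 64) and Eed in 1 (0.0155, centring), all by limma. Among the Tet genes, Tet1 differed by 0.42 (0.153), Tet3 by 0.36 (0.146) and Tet2 by -0.22 (0.45). Both of the dimmer probe sets of Tet1 rose, by 0.78 ± 0.18 (0.0018) and 0.82 ± 0.18 (0.000847) in the fit over all 21789 probe sets with 1 symbol, so the probe sets of Tet1 disagree in their calls. With the mean of its probe sets in the limma fit, Tet1 passed as higher (adjusted p = 0.00407). In p53- Myc+ against WT arrays these probe sets rose by 1.23 ± 0.18 (7.5e-06) and 1.07 ± 0.18 (3.05e-05), while the brightest differed by 0.10 and did not pass (0.753). Arrays did not overlap for 6 of the 10 genes, as for 42.6% of all genes. With each array centred on its median 6 of the 10 genes passed, and 5 after quantile normalization. Among all genes that passed, 39.2% were higher, against 59.2% with centring and 56.2% after quantile normalization. Over all genes the median difference was -0.09 here, against 0.11 under each of those scalings.

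The same direction was seen for Dnmt1 and Dnmt3a among arrays labelled Rb-, where 7 of the 10 genes passed. In p53- Rb- Myc+ against p53- Rb- arrays, Ezh1 fell by 1.17 ± 0.17 (2.25-fold lower, adjusted p = 8.61e-06) and Dnmt3a by 0.82 ± 0.20 (0.00206). Tet3 rose by 1.00 ± 0.18 (2.00-fold, 0.000132), Suz12 by 0.92 ± 0.20 (0.00083), Eed by 0.79 ± 0.19 (0.00196), Tet2 by 0.78 ± 0.21 (0.00433) and Dnmt1 by 0.51 ± 0.16 (0.0137). Hence 5 rose and 2 fell of the 10 genes, where 36.3% of all genes passed (17.6% higher and 18.7% lower), and the medians were 0.35 for the 10 genes and 0.12 for all. The arrays did not overlap for 8 of the 10 genes, as for 51.2% of all genes. Ezh2 differed by -0.16 with an interval of -0.61 to 0.30, Dnmt3b by 0.19 (0.354) and Tet1 by -0.08 (0.806). The other probe set of Tet3 rose as well, by 0.55 ± 0.19 (0.0294), and the dim other probe set of Eed did not pass (0.25, 0.438). The call of Dnmt1 ended without p53- Rb- Myc+ replicate 1 (adjusted p = 0.054), and the other 6 calls held in every alternative run.

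In p53- Myc+ against p53- arrays, where 33.3% of all genes passed, so did 76.9% of DNA methylation readers and cofactors, 37.5% of demethylation, 36.8% of PRC1, 20.0% of PRC2 accessory and 63.2% of proliferation genes. In p53- Rb- Myc+ against p53- Rb- arrays, where 36.3% of all genes passed, the shares were 53.8%, 31.2%, 42.1%, 40.0% and 47.4% in the same order of lists, so PRC1, PRC2 accessory and demethylation genes lay nearer the share of all genes than the other lists did. Among the DNA methylation readers and cofactors, 5 of 13 rose and 5 fell in p53- Myc+ against p53- arrays. Among them Cdca7, the partner of Hells, rose by 1.64 ± 0.17 (adjusted p = 3.43e-08), and the methyl-CG binding Mbd1 (-1.13), Zbtb4 (-1.29) and Zbtb38 (-1.17) fell. In p53- Rb- Myc+ against p53- Rb- arrays 4 rose and 3 fell, with Hells at 1.72 ± 0.21 (5.99e-07), Cdca7 at 1.06, Mbd1 at -1.56 and Zbtb4 at -1.78. Of 16 genes of the demethylation list, 1 rose and 5 fell in p53- Myc+ against p53- arrays and 2 rose and 3 fell in p53- Rb- Myc+ against p53- Rb- arrays. There Gadd45a and Gadd45b, stress genes proposed to aid demethylation, fell in both, by 1.61 and 1.33 in p53- Myc+ against p53- arrays and by 1.57 and 1.67 in p53- Rb- Myc+ against p53- Rb- arrays. PRC1 again split, with 4 higher and 3 lower of 19 in p53- Myc+ against p53- arrays, such as Pcgf6 (0.86) and Pcgf3 (-0.57). There were 3 higher and 5 lower in p53- Rb- Myc+ against p53- Rb- arrays, such as Bmi1 (0.98), Scmh1 (-1.52) and Phc2 (-1.05). PRC2 accessory genes numbered 0 higher and 2 lower of 10 in p53- Myc+ against p53- arrays, with Lcor at -1.16, and 3 higher and 1 lower in p53- Rb- Myc+ against p53- Rb- arrays, with Aebp2 at 1.1 ± 0.17 (2.39e-05) and Jarid2, a PRC2 cofactor, at 0.73. Without p53- replicate 1, 2 or 3 or p53- Myc+ replicate 2 the 2 accessory genes passing in p53- Myc+ against p53- arrays were 1, and without p53- Rb- replicate 3 the 4 in p53- Rb- Myc+ against p53- Rb- arrays were 2. In the proliferation list 12 of 19 rose in p53- Myc+ against p53- arrays and 9 of 19 in p53- Rb- Myc+ against p53- Rb- arrays, with 0 lower in either. Its summed intensity was 11964 to 13277 in p53- Rb- Myc+, 12489 to 13094 in p53- Myc+, 9035 to 9932 in p53- Rb- and 9257 to 10073 in p53- arrays. The marker sums given above differ between the same groups, and the part of either in these changes was not tested.

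**Figure D3:**
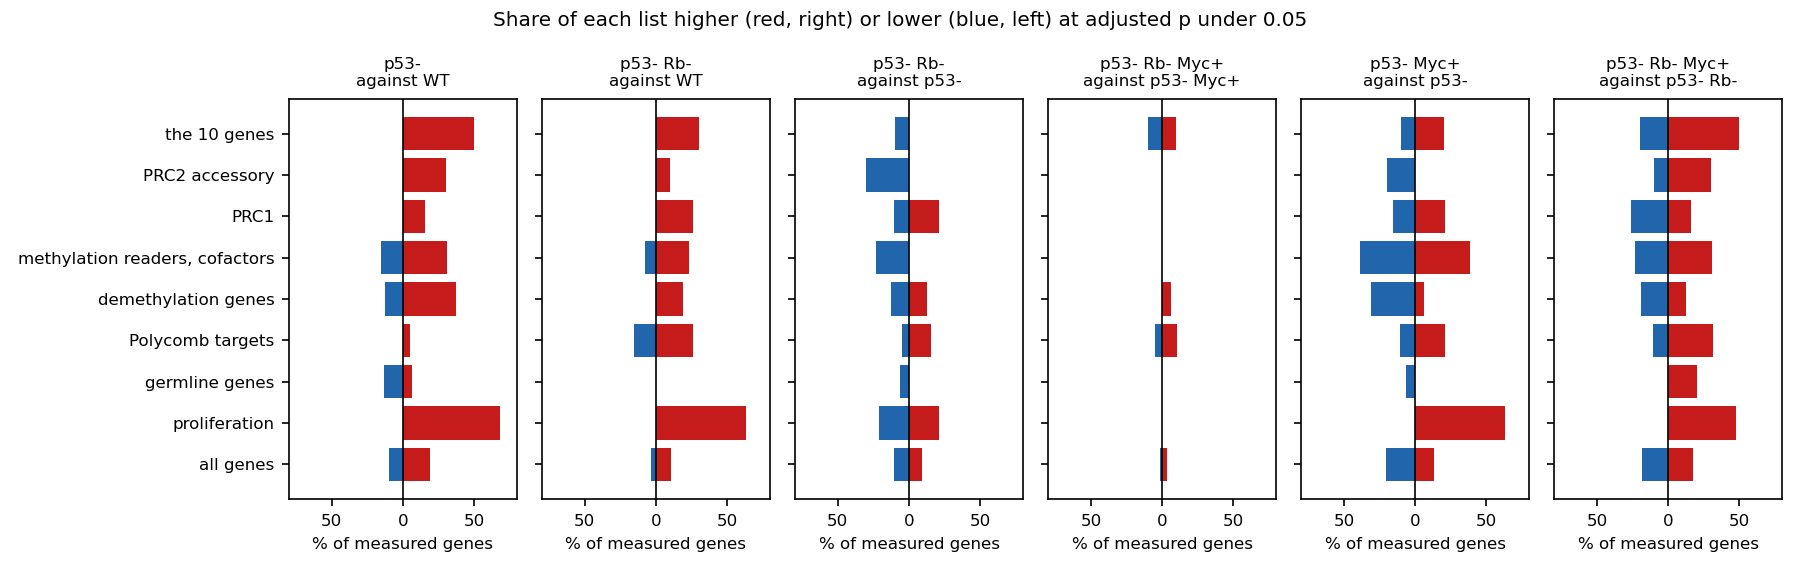
Percent of measured genes that rose (red, to the right) and fell (blue, to the left) at an adjusted p under 0.05 among the 10 genes, in each gene list and among all genes, for the 6 comparisons. The proliferation list has 13 of 19 genes higher in p53- against WT arrays and 0 either way in p53- Rb- Myc+ against p53- Myc+ arrays.

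Between both Myc+ groups few genes differed. In p53- Rb- Myc+ against p53- Myc+ arrays, Dnmt3a rose by 0.72 ± 0.20 (1.64-fold, adjusted p = 0.0337) and Ezh1 fell by 0.60 ± 0.17 (1.51-fold lower, 0.0456). These were 2 of the 10 genes, where 4.69% of all genes passed, 3.29% higher and 1.40% lower. Same-numbered arrays deviated together in these groups, and with the replicate number as a block the count was 1, the adjusted p being 0.0516 for Ezh1 and 0.0441 for Dnmt3a. Both calls ended in 9 alternatives (of 15 for Dnmt3a and of 14 for Ezh1), and the count was 0 when p53- Myc+ replicate 1, p53- Myc+ replicate 3, p53- Rb- Myc+ replicate 1 or p53- Rb- Myc+ replicate 2 was left out and 1 without p53- Myc+ replicate 2. Tet2 (0.63, 0.0939), Tet3 (0.51, 0.135) and Tet1 (-0.46, 0.309) did not pass, and Dnmt1 differed by -0.01 with an interval of -0.34 to 0.32. Of the core PRC2 subunits, Ezh2 differed by -0.25 (-0.70 to 0.21), Suz12 by 0.07 (-0.34 to 0.49) and Eed by 0.05 (-0.35 to 0.44). Arrays did not overlap for 4 of the 10 genes, as for 20.5% of all genes. By limma, 0 genes passed among the PRC2 accessory genes (3 at an unadjusted p under 0.05), PRC1 (3), the DNA methylation readers and cofactors (1) and the proliferation genes (0). Of the demethylation list, Cxxc5, which encodes a CG-binding protein, rose by 0.87 ± 0.17 (0.00258). Basal markers summed to 1734 to 1959 in p53- Rb- Myc+ and 2169 to 2541 in p53- Myc+ arrays, fibroblast markers to 3119 to 4017 in p53- Rb- Myc+ and 4453 to 5222 in p53- Myc+ arrays and leukocyte markers to 306.5 to 317.6 in p53- Rb- Myc+ and 234.2 to 238.8 in p53- Myc+ arrays, whose part in these differences was not tested.

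Whether the Rb- label went with another change at either Myc label was tested as the difference of both Rb comparisons in the same fit. Suz12 differed by 0.07 in p53- Rb- Myc+ against p53- Myc+ arrays and by -1.31 in p53- Rb- against p53- arrays, a difference of 1.38 ± 0.28 (adjusted p = 0.00223). Ezh1 differed by -0.60 with the Myc+ label and 0.35 without it, a difference of -0.95 ± 0.24 (0.0113). Tet2 differed by 0.63 with it and -0.38 without it, a difference of 1.01 ± 0.29 (0.0236). These were 3 of the 10 genes, 2 higher and 1 lower, where 13.6% of all genes passed, 8.78% higher and 4.86% lower. For Tet2 and Ezh1 the estimates thus had opposite signs at the Myc labels, though of those estimates only the one for Ezh1 with the Myc+ label passed on its own. The differences of Suz12 and Ezh1 passed in each of the 21 and 20 alternatives, and that of Tet2 missed the threshold in 8 of 20 (highest adjusted p = 0.0791, without p53- Rb- Myc+ replicate 2). In the lists, the difference was higher for 1 of 10 PRC2 accessory genes, 2 of 13 readers and cofactors, 2 of 16 demethylation genes and 3 of 19 proliferation genes, and lower for 2 of 19 PRC1 genes. With 1 array left out these counts ran from 1 to 3 for PRC2 accessory genes (2 without p53- Rb- replicate 2 or p53- Myc+ replicate 2 and 3 without p53- Rb- Myc+ replicate 3), 2 to 5 for PRC1 (5 without p53- Myc+ replicate 2) and 1 to 2 for demethylation genes (1 without p53- replicate 3, p53- Rb- replicate 1, p53- Myc+ replicate 3, p53- Rb- Myc+ replicate 1 or p53- Rb- Myc+ replicate 2). The other 7 genes did not pass, with the closest being Tet3 (0.64, 0.103) and Dnmt3a (0.54, 0.207). Among all genes that passed, 64.4% were higher, against 45.1% with centring and 53.7% after quantile normalization.

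**Figure D4:**
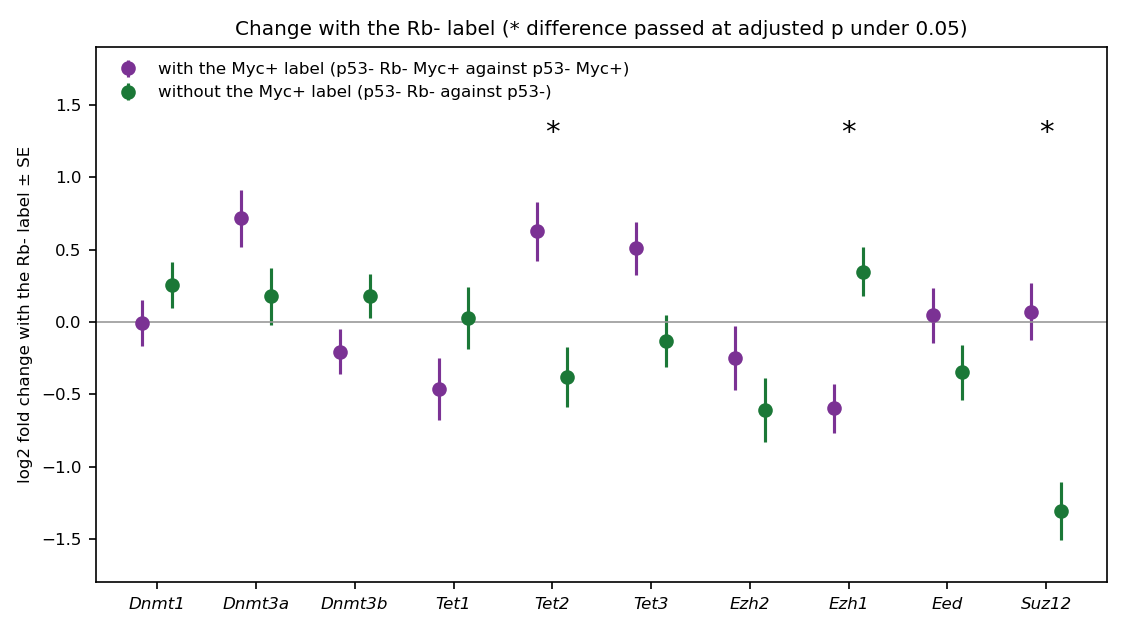
Log2 fold change with the Rb- label (vertical axis, intensity plus 16, bars are SE, and an asterisk marks a difference that passed) for each of the 10 genes, in arrays with the Myc+ label (p53- Rb- Myc+ against p53- Myc+) and without it (p53- Rb- against p53-). Suz12 stands at 0.07 with the label and -1.31 without it, and Ezh1 at -0.60 with it and 0.35 without it.

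For each of the 10 genes, the 2 genes most like it on the log2 scale, among those no dimmer than the median, were found by Pearson's r over the 15 arrays, which share the 5 groups, as a description. Suz12 was most like Dnm1l (0.983) and Ube2v2 (0.979), Dnmt1 like Snx27 (0.98) and Nup50 (0.976), and Eed like Gemin6 (0.978) and Cct8 (0.969). Dnmt3b was most like Grk6 (0.977) and Prim1 (0.965), Ezh2 like Cbfb (0.963) and Hypk (0.949), Dnmt3a like Olr1 (0.955) and Tmem135 (0.948), and Tet2 like Casp4 (0.955) and Nr3c1 (0.95). Ezh1 was most like Tubb6 (0.949) and Stau2 (0.927), and Tet3 like Slc35d1 (0.927) and Ccdc93 (0.92). Tet1 had the lowest values of the 10 genes, with Oplah (0.796) and Mir681 (0.782). None of the other 9 genes stood among these pairs for any of the 10.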

How the data were processed

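Transcripts of 15 samples were measured on Affymetrix Mouse Gene arrays, labelled with WT-Ovation Pico per the labels' protocols. The values are intensity per probe set as the authors deposited them, and the submitters' processing notes name Affymetrix Expression Console 1.1. How probes were summarised, arrays scaled and batches made up is not given in the sources used here. Precision is limited by how many arrays there are.

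Of 35556 probe sets, 21789 carried 1 gene symbol in the platform annotation, 1621 several, and 12146 were not listed. For each of 19938 genes the probe set of highest mean over all arrays was used. The log2 of intensity plus 16 was fitted as 5 group means over all arrays with limma 3.58.1 in R 4.3.3 (lmFit, eBayes), Benjamini-Hochberg adjusted over all genes, 2-sided, with a threshold of 0.05. A fold is on that scale and understates the change of dim genes. In simulated p53- against WT data over 19938 genes, 86% of 100 genes changed by 1 on the log2 scale and 100% of those changed by 2 were recovered, with 4.12% false calls. The changed genes were drawn from those at or above the median level, so the recovery does not cover dimmer genes such as Dnmt3b, Tet1, Tet2 and Ezh1. Noise was drawn separately for each gene and array, and far fewer genes changed than the 29.0% that passed in the real arrays. The share of false calls need not hold there.

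Of the 6 main pairs of groups, which alone were checked for this, same-numbered arrays deviated together only between p53- Rb- Myc+ and p53- Myc+ (r = 0.102, 0.192 and 0.379 for replicates 1 to 3). The main fit had no replicate term in any comparison, that one included. The replicate number as a block was run as an alternative for all of them, on the basis of the values alone. The 10 genes and the lists were chosen with earlier results of these data known. Named were the 10 genes, up to 4 genes of a list with the smallest p in a comparison, the 2 genes most like each of the 10, and Rb1, Myc and cell type markers. Alternatives were the constant added (1 or 64), quantile normalization, centring on array medians, a filter on dim genes, array weights, fewer arrays in the fit, the replicate block, the mean of a gene's probe sets, and leaving out each array.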

Additional observations from a re-analysis of the deposited data

Results flagged for a closer look

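A difference between both Rb comparisons, tested as an interaction in the limma fit which rests on 12 arrays, marked 3 of the 10 genes. The change of Suz12 with the Rb- label was higher by 1.38 (log2) with the Myc+ label than without it. That of Tet2 was higher by 1.01. That of Ezh1 differed by -0.95. The 6 arrays labelled Myc+ had the low epithelial marker and mouse Myc values given above, whose part in these differences was not tested.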

How the results depend on the processing

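No change of the 10 genes reversed in a call: of 1112 values under alternatives 1031 kept their side of the threshold, 42 lost it and 39 gained it. Counts of the 10 genes that passed moved as follows. In p53- against WT (5) they ran from 3 to 6 when 1 array was left out. In p53- Rb- against p53- (1) they were 2 with the constant 64, quantile normalization or the filter on dim genes, 6 with array weights, and 1 to 2 with 1 array left out. In p53- Myc+ against p53- (3) they were 5 after quantile normalization and 6 with centring, and 3 to 4 with 1 array left out. In p53- Rb- Myc+ against p53- Myc+ (2) they were 0 with the constant 64 and 1 with the constant 1, quantile normalization, centring, the filter, the replicate block or only the groups compared in the fit, and 0 to 2 with 1 array left out. In p53- Rb- Myc+ against p53- Rb- (7) they stayed within 5 to 7. In p53- Rb- against WT (3) they were 7 with array weights and 1 to 5 with 1 array left out. For the difference of both Rb comparisons (3) they were 1 with the filter, which removes dim Tet2 and Ezh1, and 5 with array weights, and 2 to 3 with 1 array left out. Passing neighbours (6) were 14 with array weights and 2 to 7 with 1 array left out, 2 without p53- Rb- Myc+ replicate 1. The replicate block left the counts of 5, 1, 3, 7, 3 and 3 in the other comparisons and the difference as they were. Other causes were not tested.

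Counts over all genes moved by over 1.5 times with array weights, to 8518 from the 3950 of p53- Rb- against p53-, to 5254 from the 2903 of p53- Rb- against WT and to 5404 from the 2719 of the difference. Leaving out 1 array gave 3470 to 6094 (5780) for p53- against WT, 2098 to 4725 (3950) in p53- Rb- against p53-, 1697 to 3167 (2903) in p53- Rb- against WT and 1762 to 3234 (2719) for the difference. The share of passing genes that were higher was 66.5% in p53- against WT, 52.5% with centring and 51.6% after quantile normalization. It was 70.2%, 55.8% and 59.4% in p53- Rb- Myc+ against p53- Myc+, and 74.2%, 65% and 58.8% in p53- Rb- against WT. With centring, the median change of all genes was 0.02 in p53- against WT, where it was 0.12, and -0.003 for the difference, where it was 0.13. Dnmt3b, Tet1, Tet2 and Ezh1 lie below the median level, where signal over background limits the folds.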

Other observations

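Of 19 measured genes known as Polycomb targets in other cell types, 1 rose and 0 fell in p53- against WT arrays, 3 rose and 1 fell in p53- Rb- against p53-, 4 rose and 2 fell in p53- Myc+ against p53-, 2 rose and 1 fell in p53- Rb- Myc+ against p53- Myc+, 6 rose and 2 fell in p53- Rb- Myc+ against p53- Rb-, and 5 rose and 3 fell in p53- Rb- against WT arrays. The shares that passed were 5.26% in p53- against WT (29.0% of all genes), 21.1% in p53- Rb- against p53- (19.8%), 31.6% in p53- Myc+ against p53- (33.3%), 15.8% in p53- Rb- Myc+ against p53- Myc+ (4.69%), 42.1% in p53- Rb- Myc+ against p53- Rb- (36.3%) and 42.1% in p53- Rb- against WT (14.6%). The count of 4 in p53- Rb- against p53- was 1 without p53- Rb- replicate 3 and 2 without p53- replicate 2 or p53- replicate 3, and that of 1 in p53- against WT was 2 without p53- replicate 2. Cdkn2a, which encodes the cell cycle inhibitor p16 and the p53 activator Arf, averaged 532 ± 99.7 in p53- Rb- Myc+, 533 ± 92.9 in p53- Myc+, 169 ± 18.3 in p53- Rb-, 156 ± 11.1 in p53- and 63.4 ± 18.5 in WT arrays (SD, n = 3 each). It rose by 1.14 ± 0.19 (log2 fold change ± SE) in p53- against WT (adjusted p = 0.000126, limma). The transcription factor gene Wt1 averaged 490.0 ± 39.2 in p53- Rb- Myc+ and 88.8 ± 17.3 in p53- Myc+ arrays and rose by 2.28 ± 0.20 between them (5.58e-08). The transcription factor genes En1 and Gata6 rose by 2.05 ± 0.17 (1.63e-09) and 2.16 ± 0.23 (9.35e-08) in p53- Myc+ against p53- arrays. Of those that fell, Cdkn1c changed by -1.01 ± 0.17 in the same arrays (adjusted p = 3.99e-05, limma). Neurog2 changed by -0.92 ± 0.20 in p53- Rb- against p53- arrays (0.00224).

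Of 15 germline genes known to be held silent by promoter methylation, 0 to 20.0% passed in the 6 comparisons, where 4.69% to 36.3% of all genes passed. In p53- against WT arrays 1 rose and 2 fell, and with 1 array left out that count of 3 was 1 to 2 (1 without p53- replicate 1 or p53- replicate 2). Sycp1, a gene of meiotic chromosome pairing, averaged 67.0 ± 23.7 in p53- and 5.05 ± 4.68 in WT arrays (1.97 ± 0.22, adjusted p = 1.8e-06). It averaged 6.97 ± 2.02 in p53- Rb- arrays, a fall of 1.82 ± 0.22 against p53- (7.5e-06). In the other comparisons the list had 1 lower in p53- Rb- against p53-, 1 lower in p53- Myc+ against p53-, 3 higher in p53- Rb- Myc+ against p53- Rb-, 0 in p53- Rb- against WT (1 at an unadjusted p under 0.05, limma) and 0 in p53- Rb- Myc+ against p53- Myc+ arrays (0). The 3 in p53- Rb- Myc+ against p53- Rb- were 0 without p53- Rb- replicate 3 or p53- Rb- Myc+ replicate 2 and 1 without p53- Rb- replicate 1 or p53- Rb- Myc+ replicate 3, and the 1 in p53- Myc+ against p53- was 3 without p53- Myc+ replicate 3. The 6 summed pluripotency markers lay between 175.3 and 299.9 on all arrays.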
